A study of Mus musculus with 6 samples.

Results

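Macrophage identity and subtype markers were followed in RNA sequencing of mouse embryonic fibroblasts (MEFs). A total of 39 marker genes were taken in 7 groups, namely pan-macrophage, resident, scavenger and serous, microglia-like, lipid-associated, MS4A and LILR, and activation markers. Of these, 36 had a row among the 17092 genes of the deposited table, matched by gene symbol, and *Cd163*, *Chil3* and *Retnla* were not analysed here. The 39 genes were chosen by a rule that drew on measured values, because the read counts of KO1 to KO3 against WT1 to WT3 were already known. Their values in that comparison are therefore a description. The thresholds of the fit over all genes serve only to count and sort them and are no test of the markers. The same rule names their order across KO1, KO2 and KO3, so that order is a description as well.

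MEFs are connective tissue cells grown out of mouse embryos. The series holds 3 libraries from wild-type MEFs (WT1, WT2 and WT3) and 3 from MEFs of mice with a global knockout of *Aff3ir-ORF2* (*Aff3ir-ORF2*-/-, labelled KO1, KO2 and KO3). *Aff3ir-ORF2* is a variant of a gene nested within *Aff3*. No flow or drug treatment is given for these libraries, and the sources used here do not say how many embryos or litters were used or whether the libraries came from separate cultures. Any p-value then measures only the spread between these libraries, which may be technical.

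Total counts were 17435133 to 17726034 in WT and 18209421 to 18252330 in *Aff3ir-ORF2*-/- libraries. Levels are given as CPM, the counts of a gene per 1e6 counts of the tested genes, after TMM normalization with factors of 0.989 to 1.02. A gene with at most 3 counts in each of a genotype's libraries is called at the floor of detection, a limit that covers counting error only. The 12 listed fibroblast genes, among them *Col1a1*, *Fn1* and *Vim*, were present in each library and together reached 28416 to 28490 CPM in WT and 24778 to 30897 CPM in *Aff3ir-ORF2*-/- MEFs. The transcript of the targeted gene *Aff3ir* was not analysed here.

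Macrophages are phagocytes that clear dead cells, debris and microbes, and they populate nearly all tissues. PU.1, encoded by *Spi1*, sets up their gene programme together with C/EBP and MAF family factors. Tissue-resident macrophages carry scavenger and endocytic receptors such as the mannose receptor, microglia are the macrophages of the brain, and lipid-associated macrophages, first known from fat and from atherosclerotic plaques, take up and handle lipids through TREM2 and apolipoprotein E. Several of these markers are also made by other cells. *Cd9* and *Gpnmb* are expressed in many non-immune cells, and *Tmem119* is made by bone-forming cells. In bulk RNA, fewer cells of a type and less RNA per cell cannot be told apart, and neither can more cells and more RNA per cell.

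*Lyz2*, lysozyme M, a classical gene of myeloid cells, had the largest absolute difference among the markers, and it has a close copy next to it, *Lyz1*, the lysozyme of Paneth cells. The first 120 coding bases of both genes are shown because reads can be shared between them. Both lie on the minus strand of chromosome 10 (GRCm38, GENCODE M21 transcripts). Capitals mark the bases that differ.

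*Lyz2*: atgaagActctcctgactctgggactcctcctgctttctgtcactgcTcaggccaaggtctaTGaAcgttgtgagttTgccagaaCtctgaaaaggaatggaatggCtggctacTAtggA

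*Lyz1*: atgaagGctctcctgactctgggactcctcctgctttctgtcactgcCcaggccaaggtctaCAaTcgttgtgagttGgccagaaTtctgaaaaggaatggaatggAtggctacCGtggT

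The coding sequences were of equal length, 444 bases, with 22 differing positions, of which 11 fell in the stretch shown. Of all 100-base windows of the *Lyz2* transcript, 1.97% also occurred in *Lyz1*. *Lyz1* counts stood at 3.09%, 8.04% and 4.40% of the *Lyz2* counts in WT1, WT2 and WT3 and at 4.90%, 4.88% and 5.19% in KO1, KO2 and KO3. The proportion thus lay within the WT range in each *Aff3ir-ORF2*-/- library. Only *Lilrb4a* had much shared sequence. All of its windows occurred in the annotated locus *Gm49339*, which had no row among the genes of the deposited table. In *Lilr4b* 14.3% of them occurred, so the count of *Lilrb4a* is uncertain. *Ms4a6c* shared 0.574% of its windows with *Prdm11*, and the remaining markers shared none.

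Promoter sequence was taken from RefSeq (GRCm38.p6) as the 250 bases before the annotated start, which was found for 24 of the 36 markers. A PU.1 motif (GAGGAAGT), a C/EBP motif (TTGCNNAA) and an E-box bound by MITF and TFE family factors (CACGTG) were searched on both strands. The promoters of *Pf4*, *Cd68* and *Hcls1* are shown because they hold a PU.1 or C/EBP match and the genes were higher in the same libraries. Capitals mark the PU.1 match in *Pf4* and the C/EBP match in *Cd68* and *Hcls1*. *Pf4* also holds a C/EBP match, which begins 212 bases before the start and is left in small letters.

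*Pf4*, chr5:90772185-90772434, plus strand: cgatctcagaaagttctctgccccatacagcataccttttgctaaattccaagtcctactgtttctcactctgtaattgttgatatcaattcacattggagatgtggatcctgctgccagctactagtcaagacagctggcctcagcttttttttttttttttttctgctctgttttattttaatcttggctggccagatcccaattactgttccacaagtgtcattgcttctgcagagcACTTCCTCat

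*Cd68*, chr11:69666171-69666420, minus strand: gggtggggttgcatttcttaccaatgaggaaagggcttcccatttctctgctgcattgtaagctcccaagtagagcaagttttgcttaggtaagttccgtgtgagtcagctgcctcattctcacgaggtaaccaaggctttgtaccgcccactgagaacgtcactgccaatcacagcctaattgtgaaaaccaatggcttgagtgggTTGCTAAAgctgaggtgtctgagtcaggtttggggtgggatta

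*Hcls1*, chr16:36934733-36934982, plus strand: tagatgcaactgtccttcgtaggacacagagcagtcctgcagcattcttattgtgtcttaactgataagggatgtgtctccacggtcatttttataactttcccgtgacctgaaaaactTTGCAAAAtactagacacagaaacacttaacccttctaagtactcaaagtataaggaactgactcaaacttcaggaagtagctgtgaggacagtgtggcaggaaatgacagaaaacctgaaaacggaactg

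The PU.1 match of *Pf4* began 10 bases before the start, the C/EBP match of *Cd68* 43 bases and that of *Hcls1* 131 bases before it. The PU.1 motif occurred in 1 of the 24 marker genes (4.17%) and in 2.79% of 27025 genes. The C/EBP motif occurred in 4 of the 24 (16.7%; *Cd68*, *Hcls1*, *Pf4* and *P2ry12*) and in 10.8% of genes, and the E-box in *P2ry12* alone (4.17%) and in 6.86% of genes. No match overlapped a match of another motif. These matches are a description of the letters in this window and not of binding sites.

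Of the 36 markers with a row, 30 had enough counts to be tested. In *Aff3ir-ORF2*-/- MEFs, 29 were higher and 0 lower by edgeR's quasi-likelihood test (adjusted p under 0.05 and at least 1.5-fold), and *Cd9* was not called. The same thresholds called 14.2% of the 13075 tested genes higher and 7.27% lower. Each *Aff3ir-ORF2*-/- library lay above each WT library for 28 of the 30, which was so for 33.3% of all tested genes, and the exceptions were *Cd9* and *F13a1*. These counts describe how the genes were chosen, because the choice used this contrast, and a gene could pass the filter on counts through the higher genotype alone. The median log2 fold change was 5.69 over the 30 tested markers and 0.0056 over all tested genes. Setting the 5 markers at the detection floor in WT (*Spi1*, *Folr2*, *Pf4*, *Fcrls* and *Ms4a6c*) to their lower bounds gave a median of 5.04. In WT MEFs, 19 markers had more than 3 counts in every library, with a median log2 fold change of 4.59.

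**Figure D1:**
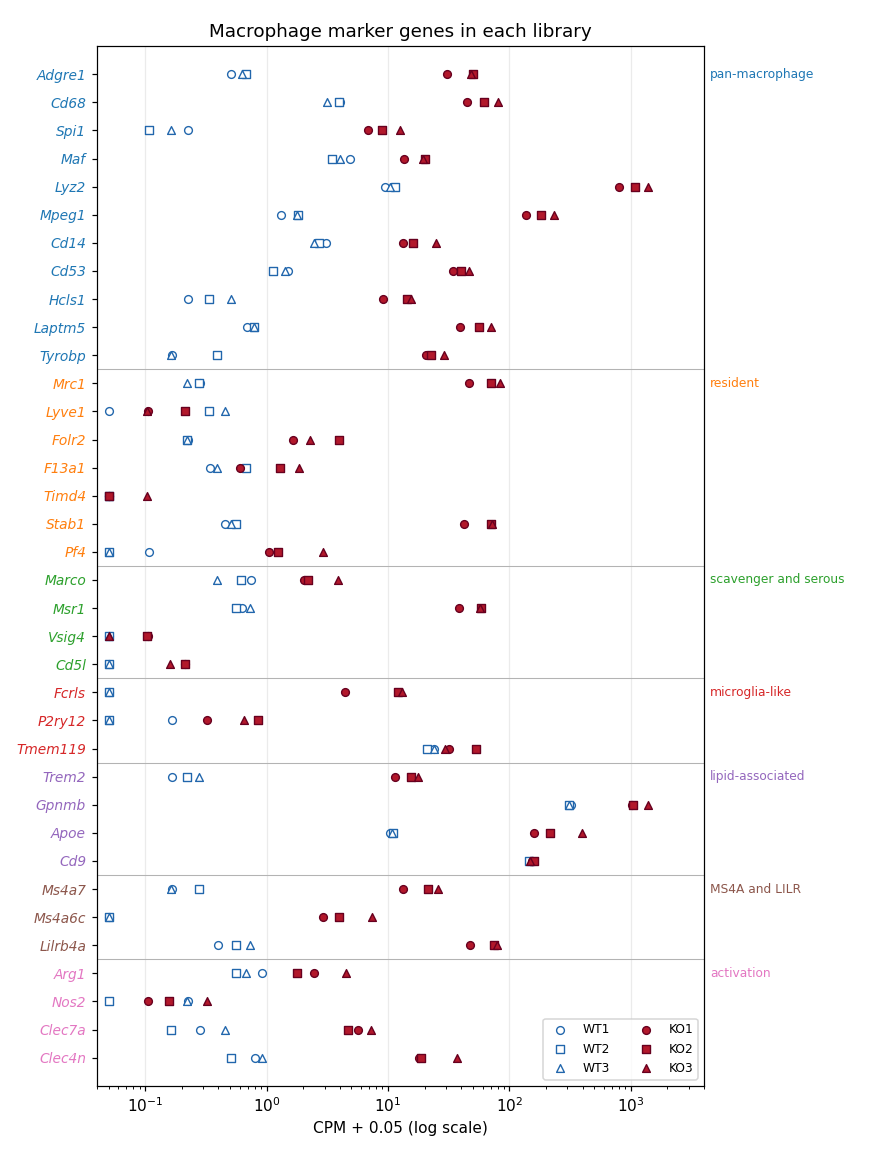
Level of each marker gene with a row, in CPM plus 0.05 on a log scale, in WT1 to WT3 (open blue) and KO1 to KO3 (filled red), with genes coloured and ruled off by group. *Lyz2* sits near 10 CPM in WT and at 795 to 1373 CPM in the *Aff3ir-ORF2*-/- libraries, while the 6 points of *Cd9* lie on top of each other.

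The 11 pan-macrophage markers, genes shared by macrophages of most tissues, were all tested and all higher in *Aff3ir-ORF2*-/- MEFs. Their summed level was 24.96 to 26.22 CPM in WT and 1144, 1556 and 1953 CPM in KO1, KO2 and KO3, a ratio of the means of 60.7. *Lyz2* was counted 162, 199 and 182 times in WT1 to WT3 and 14471, 20237 and 25195 times in KO1 to KO3. The log2 fold change was 6.71 (standard error 0.28), and the lowest *Aff3ir-ORF2*-/- library was far above the highest WT library. *Mpeg1*, which encodes the pore-forming protein perforin-2 of phagocytes, was counted 22, 31 and 30 times in WT and 2506, 3359 and 4280 times in *Aff3ir-ORF2*-/- MEFs. Its log2 fold change was 6.85 (standard error 0.32), again without overlap.

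*Adgre1* encodes F4/80, the adhesion receptor most used to stain mouse macrophages. It went from 8, 11 and 10 counts in WT to 552, 935 and 880 counts in *Aff3ir-ORF2*-/- MEFs. Its log2 fold change was 6.25 (standard error 0.34), and KO1 was the lowest of the high libraries. *Laptm5*, a lysosomal membrane protein of blood cells, went from 11, 13 and 13 to 715, 1036 and 1291 counts, with a log2 fold change of 6.27. *Tyrobp*, the DAP12 adaptor through which TREM2 signals, was at 2, 6 and 2 counts in WT and at 372, 421 and 531 counts in *Aff3ir-ORF2*-/- libraries. For *Tyrobp* the log2 fold change was 6.92, the highest of the group among genes above the floor. The master factor gene *Spi1* was at the floor in WT, with 3, 1 and 2 counts, against 123, 165 and 231 counts in KO1, KO2 and KO3. It was at least 54.6-fold higher, a bound set against 3 counts per WT library.

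The other members of the group had smaller fold changes. *Maf*, a transcription factor of resident macrophages that other cells also express, was counted 83, 60 and 69 times in WT and 246, 377 and 357 times in *Aff3ir-ORF2*-/- MEFs, and its log2 fold change of 2.13 was the lowest of the 11. *Cd14*, the co-receptor for bacterial lipopolysaccharide, went from 52, 47 and 42 to 242, 299 and 458 counts (log2 fold change 2.74). *Cd68*, a lysosomal glycoprotein, went from 69, 69 and 54 to 814, 1151 and 1480 counts (log2 fold change 4.08). None of these overlapped between the genotypes. *Hcls1*, an actin adaptor of blood cells, and *Cd53*, a leukocyte tetraspanin, had log2 fold changes of 5.37 and 4.95, with WT counts of 3 to 8 and 19 to 25.

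The resident markers were less uniform. Of the 8, 5 were tested and higher, *Lyve1* and *Timd4* were too low to test, and *Cd163* was not analysed here. *Mrc1*, the mannose receptor CD206, was counted 4, 4 and 3 times in WT and 838, 1324 and 1532 times in KO1, KO2 and KO3. Its log2 fold change of 8.27 had a standard error of 0.46, and it had the largest difference of all markers above the floor. *Stab1*, the scavenger receptor stabilin-1, went from 7, 9 and 8 to 770, 1305 and 1313 counts, and its log2 fold change was 7.04 (standard error 0.39).

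The other resident markers stayed at low counts in both genotypes. *Folr2*, folate receptor beta, was at 3 counts in each WT library and at 29, 73 and 41 counts in KO1, KO2 and KO3, a mean of 2.58 CPM against a floor of 0.172 CPM. *Pf4*, platelet factor 4, was at 1, 0 and 0 counts and at 18, 22 and 53 counts, at least 9.79-fold higher. *F13a1*, the A subunit of clotting factor XIII, was counted 5, 11 and 6 times in WT and 10, 23 and 33 times in *Aff3ir-ORF2*-/- MEFs, so that KO1 lay within the WT range in counts. Its log2 fold change of 1.49 (standard error 0.49) passed both thresholds. It did not pass them without WT1 (1.29), WT3 (1.36) or KO3 (1.07). *Lyve1*, the hyaluronan receptor of perivascular macrophages and lymphatic vessels, was counted 0, 5 and 7 times in WT and 1, 3 and 1 times in *Aff3ir-ORF2*-/- libraries, which overlap. *Timd4*, a receptor for phosphatidylserine on long-lived resident macrophages, was at 0 in 5 libraries and at 1 count in KO3.

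Of the 4 scavenger and serous cavity markers, 2 were tested and separated in the same way. *Msr1*, scavenger receptor A, was counted 10, 9 and 12 times in WT and 694, 1094 and 1046 times in *Aff3ir-ORF2*-/- MEFs, and its log2 fold change was 6.42 (standard error 0.29). *Marco*, a related scavenger receptor, went from 12, 10 and 6 to 36, 40 and 70 counts, with a log2 fold change of 2.29. Both were without overlap, while the other members of this group were at the floor in both genotypes. *Vsig4*, a complement receptor, was at 0 in each WT library and at 1, 1 and 0 counts in KO1, KO2 and KO3. *Cd5l*, secreted by macrophages of liver, spleen and serous cavities, was at 0 in WT and at 3, 3 and 2 counts.

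The microglia-like markers fell into 3 different patterns. *Fcrls*, an Fc receptor-like gene, was at 0 counts in each WT library and at 80, 225 and 240 counts in KO1, KO2 and KO3, at least 57.2-fold higher. It did not pass the adjusted p threshold without KO2, where the fitted log2 fold change was 10.28 (standard error 2.60) in place of 10.47 (1.52), values that depend on the prior count. *P2ry12*, the ADP receptor of microglia, was too low to test, with 2, 0 and 0 counts in WT and 5, 15 and 11 counts in *Aff3ir-ORF2*-/- MEFs, a mean at least 3.25 times the floor. *Tmem119* was well expressed in WT MEFs, at 411, 369 and 415 counts, against 580, 989 and 542 counts in KO1, KO2 and KO3. The groups did not overlap for *Tmem119*, but its log2 fold change of 0.74 (standard error 0.25) was the smallest among the markers called higher. The call was lost without WT1 (0.77), WT2 (0.68), WT3 (0.77) or KO2 (0.42), and without a filter on low counts (0.72).

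The log2 fold changes of the lipid-associated markers ran from 0.05 to 6.37. *Trem2*, the lipid-sensing receptor, was counted 2, 3 and 4 times in WT and 206, 288 and 322 times in *Aff3ir-ORF2*-/- MEFs, and its log2 fold change was 6.37 (standard error 0.30). *Apoe*, apolipoprotein E, went from 179, 191 and 186 to 2916, 3983 and 7233 counts, and its log2 fold change was 4.59 (standard error 0.43). Neither overlapped, and KO3 carried the most *Apoe* of the 6 libraries. *Gpnmb*, a transmembrane glycoprotein of lipid-laden macrophages, osteoclasts and pigment cells, was abundant in both genotypes. Its counts were 5531, 5449 and 5423 in WT1 to WT3 and 18691, 19486 and 25277 in KO1 to KO3, and its log2 fold change was 1.87 (standard error 0.11). *Cd9*, a broadly expressed tetraspanin, was counted 2619, 2532 and 2641 times in WT and 2802, 2982 and 2722 times in *Aff3ir-ORF2*-/- MEFs. Scaled to CPM, the *Cd9* libraries overlapped, at 144 to 152 CPM in WT and 148 to 160 CPM in *Aff3ir-ORF2*-/- MEFs, and the log2 fold change was 0.05 (standard error 0.05).

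All 3 MS4A and LILR markers were tested and higher, from 12 counts or fewer in each WT library. *Ms4a7*, a membrane protein of macrophages, was counted 2, 4 and 2 times in WT and 239, 398 and 470 times in *Aff3ir-ORF2*-/- MEFs (log2 fold change 6.97). *Ms4a6c*, of the same family, was at 0 in each WT library and at 52, 73 and 135 counts in KO1, KO2 and KO3, at least 27.4-fold higher. It missed the adjusted p threshold without KO2, at a fitted log2 fold change of 9.50 (standard error 1.81). Reads of *Lilrb4a*, an inhibitory receptor of myeloid cells, were counted 6, 9 and 12 times in WT and 864, 1400 and 1454 times in *Aff3ir-ORF2*-/- MEFs, a log2 fold change of 7.01. The related *Lilr4b*, named here because it shares sequence with *Lilrb4a*, stood at 1, 4 and 4 counts against 281, 467 and 491 counts.

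Among the 6 activation markers, 3 were tested and all 3 were higher. *Clec4n*, encoding the fungal receptor dectin-2, was counted 13, 8 and 15 times in WT and 324, 348 and 678 times in KO1, KO2 and KO3 (log2 fold change 5.14, standard error 0.51). *Clec7a*, encoding dectin-1, was counted 4, 2 and 7 times in WT and 103, 87 and 132 times in *Aff3ir-ORF2*-/- MEFs (log2 fold change 4.52). *Arg1*, arginase 1, a gene of alternatively activated macrophages, went from 15, 9 and 11 to 44, 32 and 82 counts (log2 fold change 2.09). None of these overlapped between genotypes. *Nos2*, the inducible nitric oxide synthase of classically activated macrophages, was counted 3, 0 and 3 times in WT and 1, 2 and 5 times in *Aff3ir-ORF2*-/- MEFs. It was too low to test, and its libraries overlapped.

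**Figure D2:**
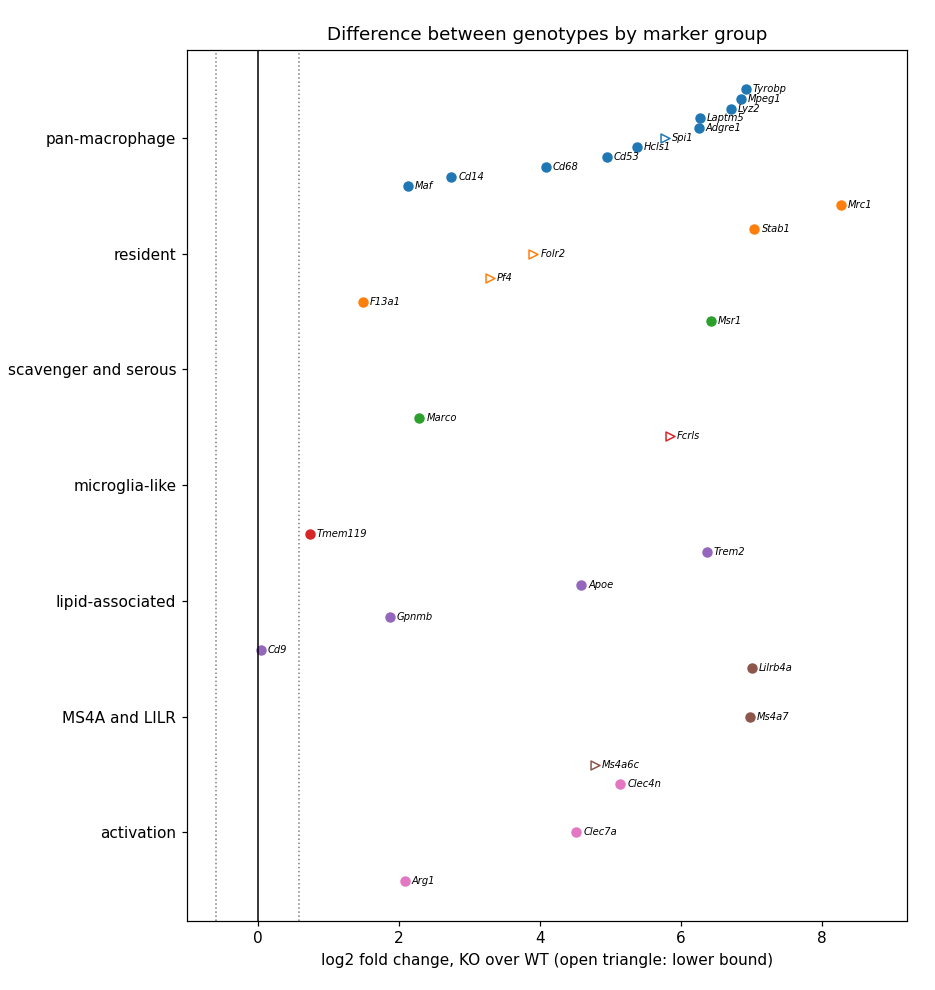
Log2 fold change of each tested marker, *Aff3ir-ORF2*-/- over WT, by marker group, with open triangles at the lower bound for genes at the detection floor in WT. The solid line is the median of all tested genes and the dotted lines are 1.5-fold in either direction; *Mrc1* lies farthest right at 8.27 and *Cd9* at 0.05.

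The group medians of the log2 fold change were 6.25 for pan-macrophage, 6.02 for resident, 4.35 for scavenger and serous, 5.60 for microglia-like, 3.23 for lipid-associated, 7.01 for MS4A and LILR and 4.52 for activation markers. When each marker at the floor in WT was given its lower bound instead, the medians were 5.77 for pan-macrophage, 3.91 for resident, 3.29 for microglia-like and 6.97 for MS4A and LILR markers. With 2 to 11 tested genes a group and several of them at the floor in WT, these medians were not compared with each other.

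Levels can be compared between genes only per transcript length, so CPM was divided by the median length of each gene's protein-coding GENCODE M21 transcripts. In WT MEFs the marker with the highest level per length was *Cd9*, at 117 to 124 CPM per kilobase, followed by *Gpnmb* at 101 to 105, without overlap. *Tmem119* came next, with a mean of 17.7 CPM per kilobase, then *Apoe* at 13.01 and *Lyz2* at 7.89. The WT order of *Apoe* and *Lyz2* depends on the length used and changes with the longest transcript. For *Apoe* the median length was 817 bases and the longest 1408, whereas both were 1316 for *Lyz2*. In *Aff3ir-ORF2*-/- MEFs *Lyz2* was first, at 604 to 1043 CPM per kilobase. *Gpnmb* at 335 to 449 and *Apoe* at 196 to 482 overlapped each other, and *Cd9* followed at 121 to 130. This order of the first 4 was the same with the longest transcript of each gene. *Stab1* was next at a mean of 104 CPM per kilobase with the median length and ranked 19 of the 36, at 7.66, with the longest, because its annotated transcripts differ in length from a median of 591 to 7999 bases.

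A few genes therefore set the summed level of the markers. The 36 genes summed to 538, 517 and 527 CPM in WT1 to WT3 and to 2753, 3391 and 4318 CPM in KO1 to KO3, a ratio of the means of 6.62. *Gpnmb* made up 59.5% and *Cd9* 28.3% of the WT sum. In *Aff3ir-ORF2*-/- MEFs *Gpnmb* made up 33.0%, *Lyz2* 31.1%, *Apoe* 7.34% and *Cd9* 4.42%. Without *Lyz2* the mean sum in *Aff3ir-ORF2*-/- MEFs was 2403 CPM in place of 3487 CPM.

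The order of the 3 *Aff3ir-ORF2*-/- libraries was then examined for the 31 markers with a mean of at least 10 counts over them. Each is 1 library, the numbers carry no order, and intervals are 95% exact conditional intervals that cover counting error only. KO1 was the lowest of the 3 for 27 markers (87.1%) and KO3 the highest for 24 (77.4%). Since the order was part of the rule, these counts support nothing by themselves. Over the 13063 tested genes above 0 in each of these libraries, KO1 was the lowest for 29.4% and KO3 the highest for 34.4%. Among the 1851 genes called higher, KO1 was the lowest for 51.4% and KO3 the highest for 41.2%. With at least 100 counts required in each of the 3 libraries, KO1 was the lowest for 20 of 22 markers.

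Between KO2 and KO1 the interval of the ratio lay above 1 for 22 of the 31 markers and below 1 for 0, with a median ratio of 1.37. For KO3 over KO1 it lay above 1 for 26 and below 1 for 0, with a median of 1.73. For KO3 over KO2 it lay above 1 for 18, below 1 for 3 and held 1 for 10, with a median of 1.26. The 3 markers lower in KO3 than in KO2 beyond counting error were *Folr2*, *Tmem119* and *Cd9*. Over the 19 markers with more than 3 counts in every WT library, the median coefficient of variation of the CPM was 14.9% among WT and 26.9% among *Aff3ir-ORF2*-/- libraries. A larger spread among *Aff3ir-ORF2*-/- libraries was not particular to the markers. The summed fibroblast list had a standard deviation of 39.4 CPM around 28460 in WT and of 3177 CPM around 27344 in *Aff3ir-ORF2*-/- MEFs.

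**Figure D3:**
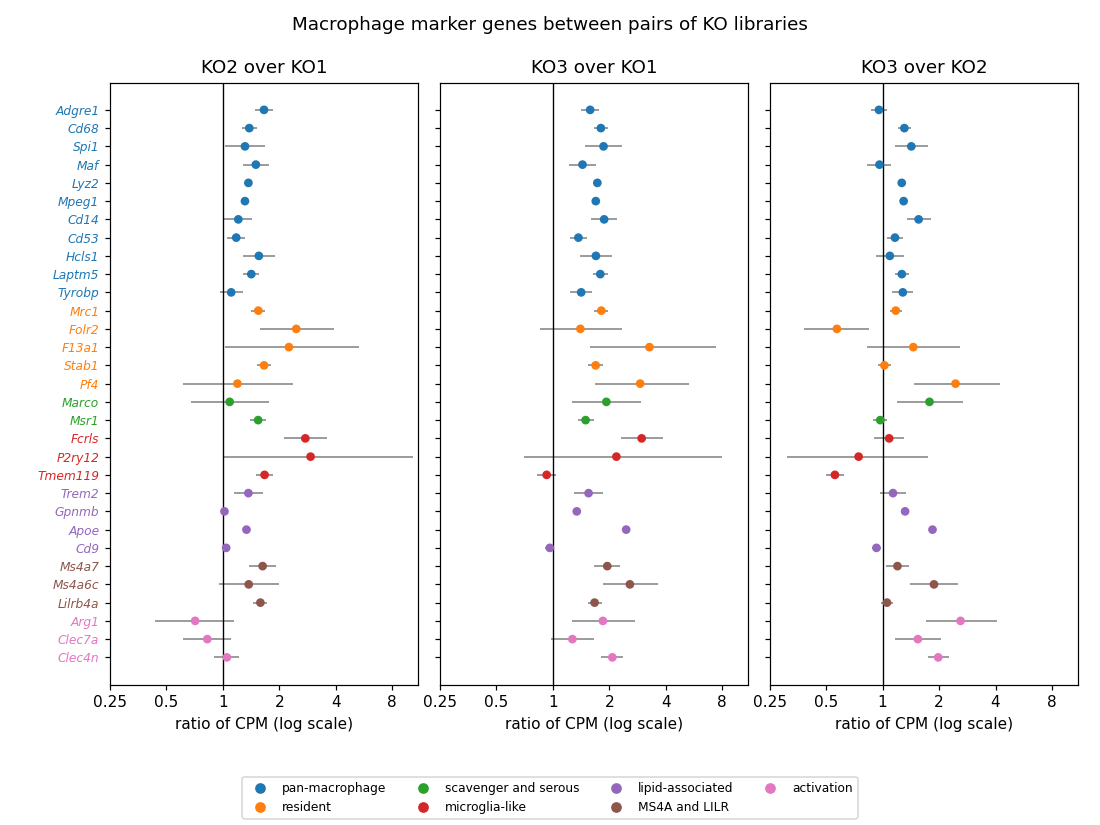
Ratio of CPM between pairs of *Aff3ir-ORF2*-/- libraries on a log scale for the 31 markers with a mean of at least 10 counts there, with 95% exact conditional intervals for counting error, coloured by group. Most points of KO2 over KO1 and of KO3 over KO1 lie right of 1, *Tmem119* moves to 0.556 in KO3 over KO2 and *Arg1* to 2.60.

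All 11 pan-macrophage markers were lowest in KO1. The ratio of KO2 to KO1 was 1.37 (1.34 to 1.40) for *Lyz2*, 1.31 (1.24 to 1.38) for *Mpeg1* and 1.31 (1.03 to 1.67) for *Spi1*. KO3 over KO1 gave 1.73 (1.69 to 1.76), 1.70 (1.61 to 1.78) and 1.86 (1.49 to 2.34) for the same genes. *Adgre1* and *Maf* were highest in KO2, but their ratios of KO3 to KO2, 0.956 (0.871 to 1.05) and 0.961 (0.830 to 1.11), held 1. The whole group summed to 1.36 times the KO1 level in KO2 (1.34 to 1.39) and to 1.71 times in KO3 (1.68 to 1.74).

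Of the 3 activation markers in this comparison, *Clec4n* was lowest in KO1. *Arg1* and *Clec7a* were the only markers of the 31 that were lowest in KO2, with ratios of KO2 to KO1 of 0.711 (0.436 to 1.15) and 0.826 (0.613 to 1.11), both of which held 1. In KO3, *Arg1* stood at 2.60 times (1.71 to 4.05), *Clec4n* at 1.98 times (1.74 to 2.26) and *Clec7a* at 1.54 times (1.17 to 2.04) its level in KO2. The summed group was at 0.971 (0.853 to 1.11) of the KO1 level in KO2 and at 1.89 (1.69 to 2.11) in KO3. In the list of other activation genes, 4 of 5 were lowest in KO1, and the median ratio of KO2 to KO1 was 1.38. The exception, *Il1rn*, had the most counts of that list, 726, 1025 and 560 in KO1, KO2 and KO3. With it the list summed to 46.0, 63.5 and 42.1 CPM, lowest in KO3, unlike the summed activation markers. *Apoe* and *Pf4* also differed more between KO3 and KO2 than most markers, at 1.84 (1.77 to 1.92) and 2.45 (1.46 to 4.22).

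The resident and microglia-like markers included the largest ratios of KO2 to KO1. *Fcrls* was at 2.75 times (2.12 to 3.59) its KO1 level in KO2 and at 2.98 times (2.30 to 3.88) in KO3, a larger step from KO1 than that of *Lyz2*. *Folr2* was at 2.46 times (1.58 to 3.93) in KO2 and at 1.40 times (0.851 to 2.34) in KO3. *Tmem119* was at 1.67 times (1.503 to 1.85) in KO2 and at 0.927 times (0.823 to 1.04) in KO3. *Tmem119* held 580 of 665, 989 of 1229 and 542 of 793 counts of the microglia-like group in KO1, KO2 and KO3, so this gene carried the fall of the group's sum from KO2 to KO3, while *Fcrls* had 225 counts in KO2 and 240 in KO3. The *Tmem119* ratio of KO2 to KO1 was close to that of *Adgre1*, 1.66 (1.49 to 1.84). The order of *Tmem119*, with KO2 highest and KO3 lowest, was that of the summed fibroblast list, which stood at 1.17 times its KO1 level in KO2 and at 0.940 times in KO3. Of the 12 fibroblast genes, 10 were highest in KO2. KO2 was the highest for 36.5% of the 13063 tested genes and for 44.9% of the 1851 called higher. The order of the sum was not that of each gene, since 5 of the 12 were lowest in KO3 and 5 in KO1. Whether the fibroblast content of the libraries had a part in the *Tmem119* values was not tested.

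**Figure D4:**
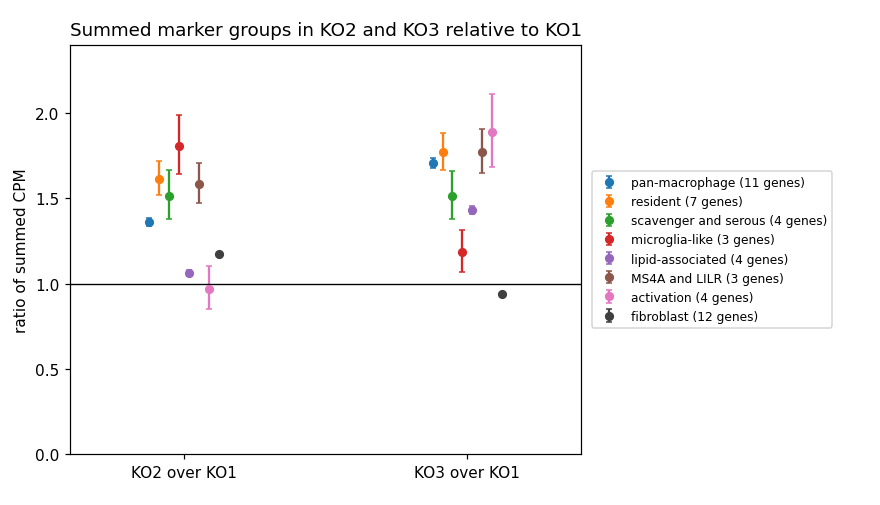
Summed CPM of each marker group in KO2 and in KO3 relative to KO1, with 95% exact conditional intervals for counting error, and of 12 fibroblast genes for comparison. Activation markers move from 0.971 in KO2 to 1.89 in KO3, while microglia-like markers, most of whose counts are *Tmem119*, move from 1.81 to 1.18.

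Other genes of the same programmes were read from lists that do not contain the markers above. These lists, too, were written with earlier results of these data known. Their counts stand beside shares of 14.2% higher and 7.27% lower over all tested genes. Of the other pan-macrophage and leukocyte genes, 19 of 19 tested were higher and 0 lower, and all 19 were lowest in KO1. *Ctss*, the lysosomal protease cathepsin S, was counted 14, 20 and 12 times in WT and 2362, 3151 and 3462 times in KO1, KO2 and KO3. *C1qa*, a subunit of complement C1q, was at 0 in each WT library and at 234, 567 and 479 counts, at least 134-fold higher. Only *Aif1* and *Ly86* of this list were too low to test. Of the myeloid transcription factors, 10 of 16 were higher and 0 lower. *Irf8*, an interferon regulatory factor of the myeloid lineage, went from 2, 4 and 0 to 82, 125 and 153 counts, whereas *Zeb2*, also expressed by fibroblasts, was at 3219 to 3510 counts in WT and at 2903 to 3089 counts in *Aff3ir-ORF2*-/- MEFs.

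Of the tested genes of the other resident list 5 of 5 were higher, of the other lipid-associated list 5 of 11, and of the other activation list 4 of 4, with 0 lower in each. A further 2 resident and 6 activation genes were too low to test. Of the activation genes with a row, 4 were at or under 3 counts in all 6 libraries. *Cd36*, a scavenger receptor for oxidized lipoproteins, went from 3, 5 and 1 to 670, 686 and 1115 counts, and *Spp1*, osteopontin, from 7954, 8311 and 8264 to 30740, 46417 and 31288 counts. *Tnf* was at 0 in WT and at 30, 35 and 67 counts in KO1, KO2 and KO3, at least 13.9-fold higher. Of 4 other microglia-associated genes tested, *Cst3*, the protease inhibitor cystatin C, was higher, at a log2 fold change of 0.74. *Slc2a5*, a fructose transporter, was lower, at -2.43, with 18 to 31 counts in WT and 3 to 6 counts in *Aff3ir-ORF2*-/- libraries. Of 8 tested paralogs of the markers, 7 were higher and 0 lower. *Mrc2*, a paralog of *Mrc1* that fibroblasts make, was not called, with a log2 fold change of 0.37.

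Many genes of neighbouring lineages were near the floor, but several were well expressed in both genotypes. Of the osteoclast list, 2 of 6 tested genes were higher and 0 lower. The 2 were *Acp5*, tartrate-resistant acid phosphatase, and *Atp6v0d2*, a proton pump subunit. The tested genes not called were *Ctsk*, *Itgb3*, *Nfatc1* and *Mmp9*, each at 159 or more counts in every library. By contrast, *Calcr*, *Ocstamp* and *Dcstamp* were at or under 3 counts in all 6 libraries. The monocyte markers *Ly6c2* and *Ccr2* were also at or under 3 counts in all 6 libraries, and of 2 tested monocyte genes *Hp*, haptoglobin, was higher. In the neutrophil, dendritic cell, mast cell and basophil, and B cell lists, 1 gene each was tested and higher, namely *S100a8*, *Zbtb46*, *Gata2* and *Cd22*, and the single tested gene of the T and NK cell list was not called. Of the defining genes of these lineages, *Ly6g*, *Flt3*, *Cpa3*, *Cd79a* and *Pax5* were at or under 3 counts in all 6 libraries. Others of these lists were not: *Csf3r*, the G-CSF receptor of neutrophils, was at 0 in each WT library and at 9, 13 and 21 counts in KO1, KO2 and KO3, and *Itgax*, encoding CD11c of dendritic cells and some macrophages, was at 0, 0 and 1 and at 15, 10 and 16 counts. Both were too low to test. None of 3 erythroid genes could be tested, and of 4 megakaryocyte genes tested 0 were called. The endothelial and lymphatic list had 4 higher and 2 lower of 7 tested, and the fibroblast list 2 higher and 1 lower of 12. Over all 13075 tested genes, 14.2% were called higher and 7.27% lower, and the fibroblast counts were near these shares.

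**Figure D5:**
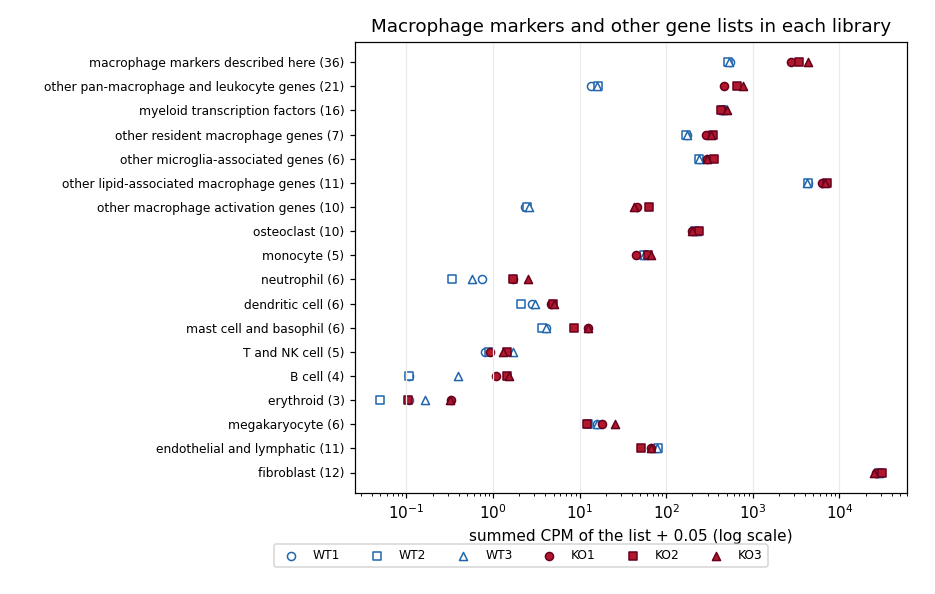
Summed CPM, plus 0.05 on a log scale, of the markers and of each other list in WT1 to WT3 (open blue) and KO1 to KO3 (filled red), with the number of genes with a row in brackets. The other pan-macrophage and leukocyte genes lie at 13.6 to 16.3 CPM in WT and at 462 to 762 CPM in the *Aff3ir-ORF2*-/- libraries. The fibroblast sums overlap at 24778 to 30897 CPM, although *Fn1* lay higher and *Col1a1* lower in each *Aff3ir-ORF2*-/- library.

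Summed over each list, the other pan-macrophage and leukocyte genes were at 13.6 to 16.3 CPM in WT and at 462, 663 and 762 CPM in KO1, KO2 and KO3. The neutrophil list was at 0.284 to 0.696 CPM in WT and at 1.65 to 2.51 CPM in *Aff3ir-ORF2*-/- MEFs, and the B cell list at 0.0569 to 0.343 and at 1.04 to 1.47 CPM. Most of the B cell sum in *Aff3ir-ORF2*-/- MEFs was *Cd22*, at 0.933 to 1.42 CPM. The monocyte list, at 54.9 to 55.7 and 44.5 to 66.9 CPM, overlapped between the genotypes. In WT nearly all of this sum was *Plac8*, at 54.3 to 55.1 CPM. *Plac8* lay lower in each *Aff3ir-ORF2*-/- library, at 27.1 to 50.7 CPM, but was not called. *Hp* went the other way, at 0.343 to 0.626 CPM in WT and 11.8 to 33.7 CPM in *Aff3ir-ORF2*-/- MEFs, so the sum covers opposite differences. The fibroblast sum, too, covers opposite differences. *Col1a1* was at 7331 to 7399 CPM in WT and at 4469 to 6404 CPM in *Aff3ir-ORF2*-/- MEFs. *Fn1* was at 8824 to 8920 and at 11158 to 12972 CPM. Neither was called, but neither overlapped between the genotypes. The part of other cell types in the marker values was not tested beyond these levels.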

How the data were processed

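RNA of WT and *Aff3ir-ORF2*-/- MEFs was sequenced (paired-end, DNBSEQ) and filtered with SOAPnuke by the authors, who deposited an estimated count per gene and library, not normalized. The submitters' processing notes name build mm8. The aligner and counter are not given in the sources used here, so no coordinates were taken from the table. The deposited estimated counts were made whole by rounding (10.6% to 11.3% of values were not whole), filtered with filterByExpr (minimum count 10, minimum total 15) and tested over 13075 genes with edgeR 4.0.16 (quasi-likelihood, TMM, robust dispersion, no covariate), called at an adjusted p (Benjamini-Hochberg) of 0.05 and 1.5-fold. R 4.3.3, limma 3.58.1, DESeq2 1.42.0, Python 3.11.15 and matplotlib 3.10.9 were used. The standard errors given are the absolute log2 fold change divided by the square root of the quasi-likelihood F statistic. These errors were not fitted directly. The functions were tested on simulated data.

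The markers and all lists were chosen with earlier results of these data known. Named genes were all 39 markers and, of another list that is discussed, up to 2 genes by counts and 2 by change, the paralogs, and genes that a small count needed. *Lilr4b* and the genes named as near the floor were chosen after their values were seen. The libraries were grouped by their titles. Correlations of same-numbered libraries' deviations from the group means were 0.0386, 0.0424 and 0.0145, so the numbers did not pair them. Promoters came from RefSeq (GRCm38.p6), transcripts from GENCODE M21. The alternatives were other scalings, filters and tools, a replicate block, a 2-fold threshold, longest transcripts, and leaving out each library. Ordinary dispersion in place of robust and the median without markers at the floor were added after seeing the data.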

Additional observations from a re-analysis of the deposited data

How the results depend on the processing

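The number of markers called higher was 29, and 26 to 30 under other scalings, filters, tools and left-out libraries, except for 10 when at least 10 counts were required in every library, which removes genes that are low in WT. The same filter gave 31 calls in the other lists in place of 61. With the replicate number as a block (replicate block), 28 markers and 62 listed genes were called and the median log2 fold change of the markers was 5.69. That median was 4.75 without a filter, 4.10 with at least 10 counts in every library, 5.27 with limma voom and 5.14 without markers at the floor in WT. Leaving out 1 library at a time gave 5.30 to 6.15 for the median, with 6.15 without WT1. The mean summed level in *Aff3ir-ORF2*-/- MEFs was 2403 CPM without *Lyz2* in place of 3487, and the median level per length was 9.35 CPM per kilobase with the longest transcripts in place of 13.1. Over single markers and alternatives, 420 values kept their direction and side of the threshold, 11 fell short of it and 0 reversed. The 11 belonged to *F13a1* (3), *Fcrls* (1) and *Ms4a6c* (1), both without KO2, and *Tmem119* (6, among them no filter and the replicate block). Except where a filter's construction is named, the cause was not tested. With 3 libraries a genotype and WT counts under 10 for many markers, fold changes of genes near the floor are imprecise.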
